A study of Homo sapiens with 6 samples.

Results

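The HOX cluster genes were followed in U2OS cells, a human line derived from an osteosarcoma, in which siRNA targeted H3.Y or, together with it, H3.X, both of them primate variants of histone H3. Members were all probe sets with exactly 1 gene symbol that reads HOXA, HOXB, HOXC or HOXD and then a number from 1 to 13. The rule found 27 of 33297 probe sets, standing for 27 of 18417 genes named by probe sets with 1 symbol, with 1 in cluster A, 10 in cluster B, 7 in cluster C and 9 in cluster D. A further probe set carried several symbols with a HOX gene among them and was left out, and HOXA genes other than HOXA2 were not analysed here. There were 3 groups of 2 arrays each: H3.X and H3.Y siRNA (the combined knockdown), H3.Y siRNA, and luciferase siRNA, a control without a target in these cells. All groups were transfected 2 times in the same cell line and harvested 4 days after transfection. The labels do not say whether the combined knockdown used a pool of siRNAs or 1 siRNA for both targets, and the siRNA targets themselves were not analysed here. The arrays of a group are labelled biological replicates with no account of how the cultures were separated, so a p-value here speaks to the spread between arrays, which may be technical.

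HOX genes encode homeodomain transcription factors that give cells their position along the body axis. In mammals they lie in 4 clusters, and a gene's number follows its place in the cluster: low numbers are used towards the head and high numbers towards the tail and the ends of the limbs. Adult mesenchymal cells and the tumours that arise from them keep part of this positional pattern. Polycomb proteins hold HOX clusters silent through methylation of histone H3, Trithorax proteins keep them active, and retinoic acid switches on the low-numbered genes in the embryo.

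The clusters also hold microRNA genes, and their mature sequences are shown because miR-196a is known to target HOX messages, HOXB8 and HOXC8 among them. Capitals mark the seed, bases 2 to 8. MIR196A1, between HOXB9 and HOXB13, and MIR196A2, between HOXC9 and HOXC10, give the same mature sequence, while MIR10A lies beside HOXB4. In RefSeq, GRCh38.p14, the mature sequence lies at chr17:48632532-48632553 (minus strand) for MIR196A1, chr12:53991762-53991783 (plus strand) for MIR196A2 and chr17:48579904-48579926 (minus strand) for MIR10A.
miR-196a-5p: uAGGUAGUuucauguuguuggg
miR-10a-5p: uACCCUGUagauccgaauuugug

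The promoters of 11 members could be matched in the RefSeq table. Outside cluster D these were HOXA2, HOXB1 and HOXC5 alone, so HOXB9, HOXB13, HOXC8 and HOXC10 are not among them. The promoters of HOXD10 and HOXD11, neighbours in cluster D, are shown because of how their values were sorted below. HOXD10 had an unadjusted p under 0.05 between the knockdowns (limma), and HOXD11 was among the 4 steadiest members against luciferase. Neither was called in any comparison, and whether their responses differ was not tested. Each is the 250 bases before the annotated start on the plus strand, at chr2:176116528-176116777 for HOXD10 and chr2:176107030-176107279 for HOXD11 (GRCh38.p14). Capitals mark matches on either strand to the TATA box letters TATAAA, the CCAAT box, the letters TGATTNAT that a HOX protein and its PBX partner bind together, the homeodomain core TAATTA and the E box letters CACGTG.
HOXD10: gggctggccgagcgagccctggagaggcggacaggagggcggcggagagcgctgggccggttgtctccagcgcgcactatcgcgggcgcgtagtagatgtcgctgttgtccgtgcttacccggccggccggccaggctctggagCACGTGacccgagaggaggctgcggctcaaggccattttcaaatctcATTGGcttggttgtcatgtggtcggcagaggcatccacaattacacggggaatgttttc
HOXD11: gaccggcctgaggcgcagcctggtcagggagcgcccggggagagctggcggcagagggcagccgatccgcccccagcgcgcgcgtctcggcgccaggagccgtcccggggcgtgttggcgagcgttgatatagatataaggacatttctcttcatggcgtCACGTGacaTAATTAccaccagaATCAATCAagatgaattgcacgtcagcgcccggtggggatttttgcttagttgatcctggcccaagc
The HOXD10 window holds an E box and a CCAAT box on the minus strand, and the HOXD11 window holds an E box, a homeodomain core and a HOX and PBX match. The E box letters were found in 5 of the 11 member promoters, all 5 in cluster D, and in 6.34% of all 35116 promoters of the same length. The CCAAT box was found in 9 of 11 and in 32%, the HOX and PBX letters in 2 of 11 and 2.48%, the homeodomain core in 2 of 11 and 4.35%, and the TATA box in 1 of 11 and 10.7%. The member promoters had a median GC content of 59.2%, against 58% over all promoters, and a median ratio of observed to expected CpG of 0.888, against 0.558. A match describes these letters in this window, not a site in use.

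The medians of the 6 arrays ran from 5.10 to 5.14 log2 units. The correlation across probe sets was 0.986 to 0.992 within a group and 0.978 to 0.987 between groups. The median distance between both arrays of a group over the 27 members was 0.22 log2 units in the combined knockdown, 0.22 after H3.Y siRNA and 0.20 with luciferase siRNA. The 8 bone and 5 mesenchymal marker probe sets lay above the background level defined below on all 6 arrays, while of 5 blood marker probe sets 4 lay below it on all 6 and 0 above it on all 6. Of 5 neural marker probe sets, however, 4 lay above it on all 6 arrays, those of GFAP, OLIG2, SOX1 and NES. Of 9 epithelial marker probe sets, 6 lay above it on all 6 arrays, and their summed log2 level was 67.7 to 68.0 in the combined knockdown, 55.3 to 58.4 after H3.Y siRNA and 60.1 to 61.4 with luciferase siRNA. The summed log2 level of the bone markers was 61.6 to 62.3 in the combined knockdown, 54.5 to 56.7 after H3.Y siRNA and 54.3 to 55.7 with luciferase siRNA. All 8 were higher in the combined knockdown than with luciferase. The largest of these log2 differences were 3.31 ± 0.30 at TNFRSF11B and 1.58 ± 0.17 at COL1A1. For the mesenchymal markers the sums were 45.5 to 46.2, 43.2 to 43.7 and 42.0 to 43.6 in the same order. Of these, 3 were higher and 2 lower in the combined knockdown, with FN1 at 2.37 ± 0.29. The part of these shifts in the HOX values was not tested, and in bulk RNA fewer cells of a type cannot be told apart from less RNA per cell.

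Most HOX genes of clusters B, C and D read above the background level in U2OS cells. The table has no detection p-values, so a probe set was taken as above background where it exceeded the 95th percentile of 360 olfactory receptor probe sets of the same array, at 4.45 to 4.66 log2 units, on both arrays of a group. By this measure 21 of 27 members were above background in the combined knockdown, 23 after H3.Y siRNA and 20 with luciferase siRNA, and 20 were so on all 6 arrays. The share of all probe sets above this level was 56.8% to 59.6% per array. Of the neural markers above it on all 6 arrays, GFAP, OLIG2 and SOX1 read 4.62 to 5.59 log2 units. On every array 7 of the 20 members lay above all readings of these 3 (a level chosen after the values were seen). NES, the other neural marker, read 7.27 to 7.67. The lowest readings of HOXB9 and HOXB2, the highest HOX probe sets, were 7.37 and 7.33, so these did not lie above NES in the same way. A reading above background is therefore a statement about this threshold. Whether olfactory receptor probes and HOX probes differ in base composition was not tested, and at the 99th percentile (5.41 to 5.72 log2 units) the counts were 10, 7 and 14. That level was highest on the H3.Y arrays, at 5.72 and 5.71, and lowest on the luciferase arrays, at 5.41 and 5.49. These counts therefore do not compare the groups at the same level.

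With numbers 9 to 13 taken as posterior, 11 of 12 posterior members were above background on all 6 arrays, against 4 of 7 central members (numbers 5 to 8) and 5 of 8 anterior members (numbers 1 to 4). By cluster the counts were 0 of 1 in A, 7 of 10 in B, 6 of 7 in C and 7 of 9 in D. The counts by position and by cluster hold for the 95th percentile. Among the members counted, the posterior HOXC9, HOXC12, HOXD10 and HOXD13 and the anterior HOXB4 lay below the 99th percentile on every array. The posterior count therefore depends on the threshold. Members below background on all 6 arrays were HOXA2, a branchial arch and hindbrain gene (3.72 to 4.38 log2 units over the arrays), HOXC5 (3.77 to 4.19), HOXD3 (2.51 to 3.11) and HOXD12 (2.82 to 3.45). HOXB1, HOXB5 and HOXB8 lay around the background level, each above it on some arrays only. HOXB1, a hindbrain gene, had 4.66 and 4.36 log2 units in the combined knockdown, 4.99 and 4.67 after H3.Y siRNA, and 4.81 and 4.25 with luciferase siRNA. HOXB8 had 4.59 and 4.34 in the combined knockdown, 4.78 and 4.88 after H3.Y siRNA, and 4.78 and 4.23 with luciferase siRNA. Both therefore passed on both arrays in the H3.Y group alone, on values less than 1 log2 unit apart over all 6 arrays. HOXB5 had 4.71 and 4.59 in the combined knockdown, 4.54 and 5.12 after H3.Y siRNA, and 4.67 and 4.48 with luciferase siRNA.

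**Figure D1:**
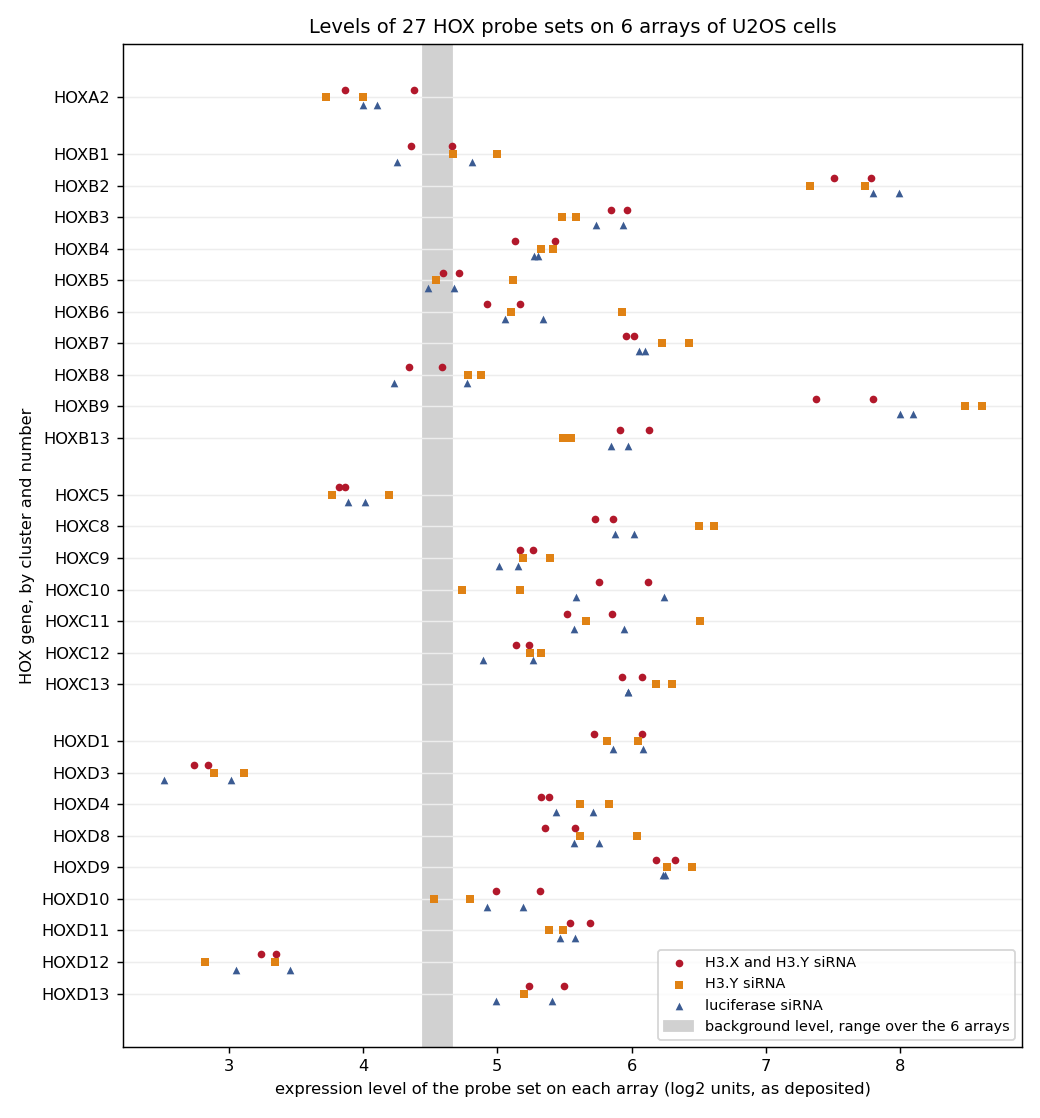
Levels of the 27 HOX probe sets on each of the 6 arrays, in log2 units as deposited (x axis), by gene (y axis, clusters A to D from the top). Circles are arrays of the combined knockdown, squares of H3.Y siRNA and triangles of luciferase siRNA, and the grey band spans the background level of 4.45 to 4.66 over the arrays. HOXB9 and HOXB2 are the members above 7 log2 units, and HOXA2, HOXC5, HOXD3 and HOXD12 lie left of the band on every array.

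A level also depends on the probes, so it does not rank transcripts of different genes. The probe sets with the highest readings were HOXB9, a posterior gene that patterns the thoracic skeleton in mice, at 7.37 to 8.61 log2 units, and HOXB2, a hindbrain gene, at 7.33 to 7.99. The other 18 members above background on all arrays lay between 4.53, at HOXD10, and 6.61, at HOXC8.

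After H3.Y siRNA the estimated difference from luciferase was under 2-fold for each of the 27 members, and none passed the test over the whole array. The comparison asks which transcripts change when H3.Y is targeted. The largest differences were at near neighbours in cluster C and ran in opposite directions: HOXC10, a lumbar and hindlimb gene in mice, at log2 -0.96 ± 0.27 (SE, n = 2 arrays per group) and HOXC8, which patterns thoracic vertebrae in mice, at 0.61 ± 0.14. Their adjusted p was 0.20 for HOXC10 and 0.14 for HOXC8 (limma, Benjamini-Hochberg over all probe sets). Adjusted p over the 27 ran from 0.14 to 1. HOXC10 ranged from log2 -1.29, without luciferase replicate 1, to -0.63, without luciferase replicate 2, so it passed 2-fold without luciferase replicate 1 and also without H3.Y replicate 2 (-1.18). Without luciferase replicate 2, HOXC8 at 0.68 was the farther of both from luciferase.

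HOXC10 had 5.76 and 6.12 log2 units in the combined knockdown, 4.74 and 5.17 after H3.Y siRNA, and 5.59 and 6.24 with luciferase siRNA. The H3.Y arrays were the lowest of the 6 and did not overlap with the others. HOXC8 had 5.73 and 5.86 in the combined knockdown, 6.50 and 6.61 after H3.Y siRNA, and 5.87 and 6.02 with luciferase siRNA. Here the H3.Y arrays were the highest of the 6, by more than the distance between arrays of any group. HOXC9, which lies between them, had 5.26 and 5.17 in the combined knockdown, 5.19 and 5.39 after H3.Y siRNA, and 5.01 and 5.15 with luciferase siRNA. Its difference after H3.Y siRNA was 0.21 ± 0.14 (adjusted p = 0.59, limma), so the middle gene of the 3 lay above luciferase by less than the test could tell from 0.

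HOXB9 had 7.37 and 7.80 log2 units in the combined knockdown, 8.48 and 8.61 after H3.Y siRNA, and 7.997 and 8.10 with luciferase siRNA. The 3 groups did not overlap, with luciferase in the middle. HOXB13, a gene of the tail end of the body and of the prostate, had 5.91 and 6.13 in the combined knockdown, 5.49 and 5.55 after H3.Y siRNA, and 5.85 and 5.97 with luciferase siRNA. Its H3.Y arrays lay below all others, while the other groups overlapped. These 2 posterior members of cluster B differed from luciferase by log2 0.50 ± 0.18 for HOXB9 and -0.39 ± 0.14 for HOXB13 after H3.Y siRNA, with adjusted p of 0.28 and 0.29 (limma).

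In all, 0 of 27 members were called after H3.Y siRNA in limma, where 0.279% of all probe sets were called, and 4 had an unadjusted p under 0.05 (HOXB9, HOXB13, HOXC8 and HOXC10), where 13.9% of all probe sets did. The arrays of H3.Y and luciferase siRNA did not overlap for 13 members, 8 higher and 5 lower after H3.Y siRNA, where 41.7% of all probe sets did not overlap (21.7% higher, 20% lower). These shares lie near those of the whole array, and without luciferase replicate 2 the count at an unadjusted p under 0.05 was 1. The 95% confidence interval of the difference, not adjusted for the number of genes, excluded a change of 2-fold or more for 25 members (92.6%), against 85.3% of all probe sets. The exceptions were HOXC10 (log2 -1.61 to -0.31) and HOXC11 (-0.40 to 1.05), whose H3.Y arrays at 5.66 and 6.51 were the farthest apart of any member in that group.

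By cluster, the median log2 difference after H3.Y siRNA was 0.25 over the 10 members of B (7 higher, 3 lower), 0.21 over the 7 of C (6 higher, 1 lower) and 0.00 over the 9 of D (4 higher, 5 lower). The median over all 27 was 0.15, with 17 higher and 10 lower, against 0.02 over all probe sets, of which 17794 were higher and 15502 lower. Without luciferase replicate 2 the median of the 27 was 0.02, and without H3.Y replicate 2 it was 0.07. By position, all 7 central members were higher, at a median of 0.25 and with a range of 0.03 to 0.61, HOXC5 below background among them. Without H3.Y replicate 2 there were 4 higher and 3 lower (median 0.15), and without H3.Y replicate 1 or luciferase replicate 2 there were 6 higher and 1 lower. Anterior members split 4 to 4 (median 0.02) and posterior members 6 to 6 (median 0.06). None of these members was called, and both posterior genes numbered 10 were lower, HOXD10 by -0.40 ± 0.19 beside HOXC10.

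In the combined knockdown, which asks the same when siRNA targets both variants, all 27 members lay within a log2 difference of -0.46 to 0.17 from luciferase. After H3.Y siRNA they lay within -0.96 to 0.61, and the difference between these spreads was not tested. The member farthest from luciferase was HOXB9, at log2 -0.46 ± 0.18 (SE, n = 2 arrays per group; adjusted p = 0.29, limma), with arrays below and not overlapping those of luciferase. HOXB9 gave -0.24 without combined knockdown replicate 1 and -0.67 without combined knockdown replicate 2. HOXC10, the member farthest from luciferase after H3.Y siRNA, gave 0.03 ± 0.27, and HOXC8 gave -0.15 ± 0.14. The comparisons share the luciferase arrays, so these values stand side by side and are not independent of each other.

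The limma fit called 0 of 27 members in the combined knockdown, where 1.84% of all probe sets were called. At an unadjusted p under 0.05 there was 1 member, HOXB9, where 15.3% of all probe sets passed. That count was 0 without luciferase replicate 1, without luciferase replicate 2 or without combined knockdown replicate 1. Arrays did not overlap for 7 members, 1 higher and 6 lower, where 47.4% of all probe sets did not overlap (23.4% higher, 24% lower). The 95% interval excluded a change of 2-fold or more for all 27 members, against 85% of all probe sets. The median size of the difference was 0.09 log2 units over the members and 0.16 over all probe sets, and the plot of difference sizes shows the members' curve to the left of the whole array here.

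In signed differences the median over the 27 members was 0.01, with 14 higher and 13 lower, against 0.00 over all probe sets, and it ranged from -0.04 to 0.02 leaving out 1 array. The median lay at -0.03 over cluster B, 0.03 over C and 0.03 over D. Of 7 central members 6 were lower (median -0.11) and of 12 posterior members 10 were higher (median 0.07), and none of these was called. The posterior count was 6 without luciferase replicate 2 and 7 without combined knockdown replicate 2. The largest positive difference was that of HOXD13, a gene of the digits, at 0.17 ± 0.18, with 5.49 and 5.23 log2 units in the combined knockdown, 5.20 and 5.20 after H3.Y siRNA and 5.41 and 4.99 with luciferase siRNA. Its combined knockdown and luciferase arrays overlapped.

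**Figure D2:**
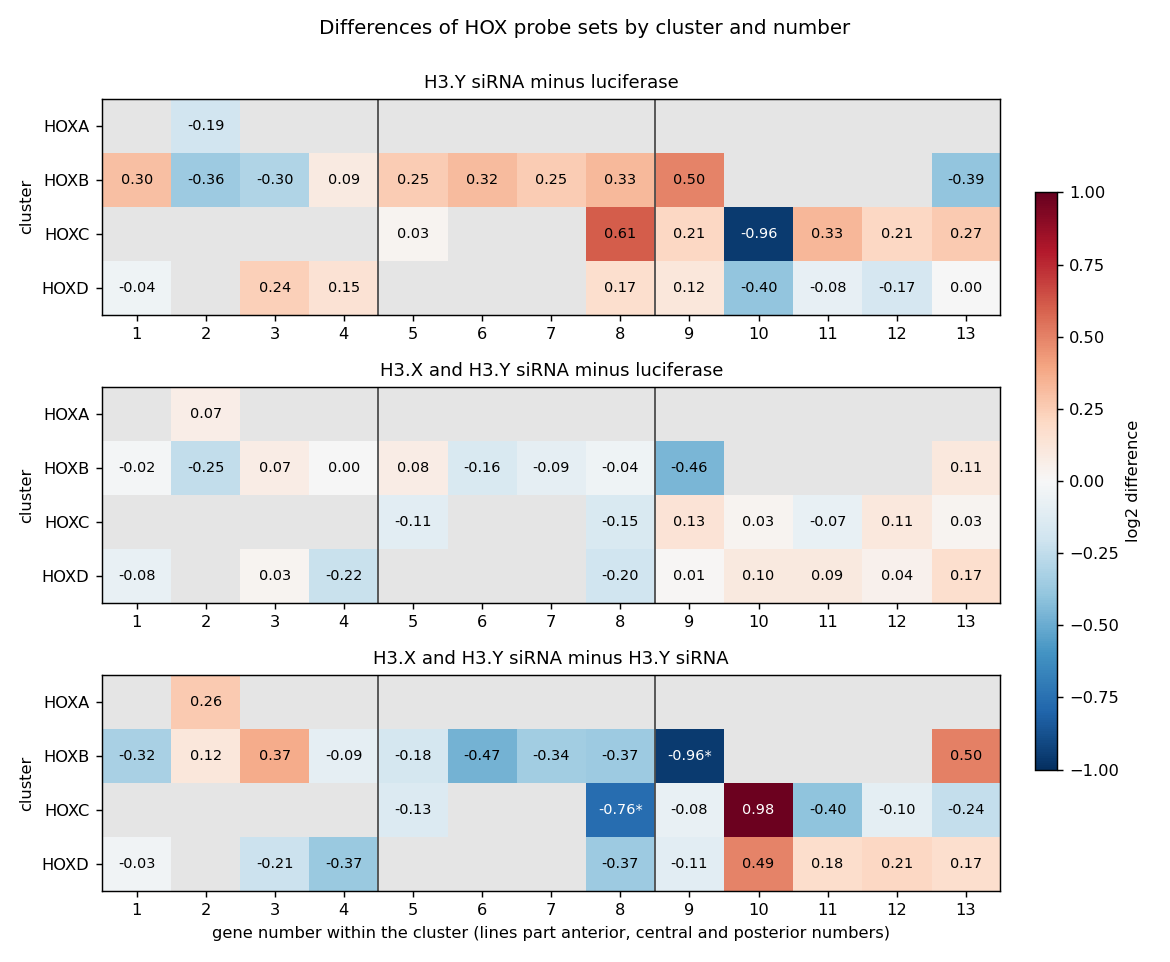
Log2 differences of the HOX probe sets in the 3 comparisons (panels), by gene number (x axis) and cluster (y axis), with red for higher and blue for lower in the group named first. Grey cells are genes that do not exist or were not analysed here, and an asterisk marks an adjusted p under 0.05 in limma. The asterisks stand at HOXB9 and HOXC8 in the bottom panel, and the values of the middle panel stay between -0.46 and 0.17.

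**Figure D3:**
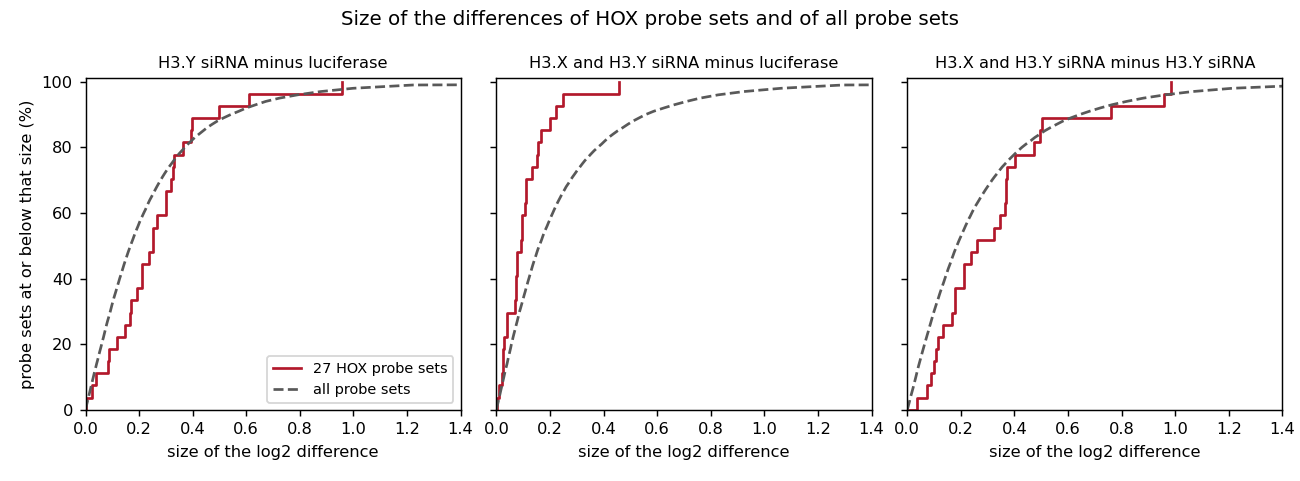
Share of probe sets (y axis, %) whose log2 difference was at or below a given size (x axis), for the 27 HOX probe sets (solid line) and all 33297 (dashed line, at whole percentiles), in each comparison. The HOX line runs left of the whole array in the combined knockdown against luciferase, with a median size of 0.09 against 0.16, and right of it at the median after H3.Y siRNA, with 0.25 against 0.17.

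With the combined knockdown set against H3.Y siRNA, 2 of 27 HOX members passed the test, where 4.67% of all probe sets did. HOXB9 was 1.94-fold lower in the combined knockdown (log2 -0.96 ± 0.18 SE, n = 2 arrays per group, adjusted p = 0.037, limma) and HOXC8 was 1.69-fold lower (-0.76 ± 0.14, adjusted p = 0.036). HOXC10 ran the other way by as much, at 0.98 ± 0.27, but its adjusted p was 0.11, and that of HOXB13 (0.50 ± 0.14) was also 0.11. With dim probe sets left out of the fit, both passed the threshold (adjusted p = 0.046 for HOXC10 and 0.049 for HOXB13). These differences follow the levels given above, in which the H3.Y arrays were the highest for HOXB9 and HOXC8 and the lowest for HOXC10 and HOXB13. They share the H3.Y arrays with the comparison against luciferase.

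Both calls were close to the threshold. Leaving out any 1 of the 6 arrays, luciferase arrays included, raised the adjusted p of HOXB9 to between 0.084 and 0.22 and that of HOXC8 to between 0.075 and 0.25, with 1 residual degree of freedom fewer. Their log2 differences then ranged from -1.17 to -0.74 for HOXB9 and from -0.82 to -0.69 for HOXC8. A fit of only the 4 arrays compared gave adjusted p of 0.084 for HOXB9 and 0.076 for HOXC8.

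Of the 27 members, 2 were called (7.41%), both lower, where 4.67% of all probe sets were called and 1.92% were called lower. A further 5 had an unadjusted p under 0.05, which made 7 of 27 (25.9%) where 19% of all probe sets did. Whether these shares differ from those of the whole array was not tested. The 7 became 4 without combined knockdown replicate 1 and 3 without combined knockdown replicate 2. Besides HOXC10 and HOXB13 these were HOXB3, HOXB7 and HOXD10. HOXB3, a hindbrain gene, had 5.84 and 5.96 log2 units in the combined knockdown, 5.48 and 5.58 after H3.Y siRNA, and 5.73 and 5.93 with luciferase siRNA. Its H3.Y arrays were the lowest of the 6, and the combined knockdown lay 0.37 ± 0.14 above them (adjusted p = 0.22, limma). HOXB7 had 6.01 and 5.96 in the combined knockdown, 6.23 and 6.43 after H3.Y siRNA, and 6.06 and 6.10 with luciferase siRNA. The H3.Y arrays were its highest, at a difference of -0.34 ± 0.14 (adjusted p = 0.24, limma). HOXD10, a lumbar and hindlimb gene in mice like HOXC10, had 5.32 and 4.99 in the combined knockdown, 4.79 and 4.53 after H3.Y siRNA, and 5.19 and 4.92 with luciferase siRNA. As with HOXC10 the H3.Y arrays were its lowest, and the combined knockdown lay 0.49 ± 0.19 above them (adjusted p = 0.22, limma), close to the background level.

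Arrays of the combined knockdown and H3.Y siRNA did not overlap for 16 members, 6 higher and 10 lower, where 46.6% of all probe sets did not overlap (21.2% higher, 25.4% lower). The 95% interval excluded a change of 2-fold or more for 22 members (81.5%), against 82.3% of all probe sets, and the others were HOXB6, HOXB9, HOXC8, HOXC10 and HOXC11. The median log2 difference was -0.11 over the 27 members, with 9 higher and 18 lower, against -0.03 over all probe sets. It was -0.05 without H3.Y replicate 2. By cluster it was -0.25 in B, -0.13 in C and -0.03 in D. All 7 central members were lower, at a median of -0.37 and a range of -0.76 to -0.13. Without H3.Y replicate 2 there were 5 lower and 2 higher (median -0.24). Of 8 anterior members 5 were lower (median -0.06), and posterior members split 6 to 6 (median 0.05).

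Within a cluster, neighbours did not share a direction throughout. In cluster B the run HOXB4 to HOXB9 had 6 of 6 members lower in the combined knockdown than after H3.Y siRNA, from -0.09 at HOXB4 to -0.96 at HOXB9, while HOXB2, HOXB3 and HOXB13 were higher. In cluster C HOXC10 was higher between HOXC9 (-0.08) and HOXC11 (-0.40). In cluster D the run HOXD10 to HOXD13 had 4 of 4 members higher, by 0.17 to 0.49, and HOXD1 to HOXD9 had 5 of 5 measured members lower, at -0.37 to -0.03. Of these members HOXB9 alone was called. The runs count HOXD3 and HOXD12, below background on all 6 arrays, and HOXB5 and HOXB8, above it on some arrays only. The runs were picked out after the values were seen and carry no test.

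The steadiest members above background against luciferase were HOXD1, HOXB4, HOXD11 and HOXD9. HOXB4, known for expanding blood stem cells, had 5.13 and 5.43 log2 units in the combined knockdown, 5.33 and 5.42 after H3.Y siRNA, and 5.27 and 5.30 with luciferase siRNA. HOXD1 had 6.08 and 5.72 in the combined knockdown, 6.05 and 5.82 after H3.Y siRNA, and 6.09 and 5.86 with luciferase siRNA. In HOXD1 the arrays within each group lay farther apart than the group means. HOXD9 had 6.18 and 6.32 in the combined knockdown, 6.45 and 6.27 after H3.Y siRNA, and 6.25 and 6.23 with luciferase siRNA. HOXD11, a forearm gene in mice whose promoter is printed beside that of HOXD10, had 5.54 and 5.69 in the combined knockdown, 5.39 and 5.49 after H3.Y siRNA, and 5.47 and 5.58 with luciferase siRNA. Over both comparisons with luciferase these 4 members differed by at most 0.12 log2 units, with standard errors of 0.14 to 0.18.

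The remaining members were not called in any comparison and had unadjusted p above 0.05 in each. HOXB2 had 7.51 and 7.79 log2 units in the combined knockdown, 7.33 and 7.74 after H3.Y siRNA, and 7.99 and 7.80 with luciferase siRNA. Every knockdown array of HOXB2 lay below both luciferase arrays, with log2 differences of -0.25 ± 0.19 in the combined knockdown and -0.36 ± 0.19 after H3.Y siRNA. HOXB6 gave 0.32 ± 0.28 after H3.Y siRNA, on arrays of 5.10 and 5.93. HOXC13, a hair and nail gene, had 6.08 and 5.93 in the combined knockdown, 6.18 and 6.30 after H3.Y siRNA, and 5.98 and 5.97 with luciferase siRNA. For HOXC13 the H3.Y arrays were the highest of the 6, at 0.27 ± 0.13 above luciferase (adjusted p = 0.45, limma). HOXC12 gave 0.21 ± 0.16 after H3.Y siRNA, HOXD4 0.15 ± 0.16 and HOXD8 0.17 ± 0.19. HOXD4 and HOXD8 lay 0.37 lower in the combined knockdown than after H3.Y siRNA (log2 -0.37 ± 0.16 and -0.37 ± 0.19). The 4 members below background moved by -0.19 to 0.24 after H3.Y siRNA and by -0.11 to 0.07 in the combined knockdown.

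Among regulators of HOX transcription, a Polycomb gene and a Trithorax cofactor were called. In the Polycomb list 24 of 29 genes were measured on 27 probe sets, with 0 higher and 1 lower after H3.Y siRNA, 0 called in the combined knockdown (7 at an unadjusted p under 0.05) and 1 higher between the knockdowns (limma, over all probe sets). Of all probe sets 0.279%, 1.84% and 4.67% were called in these comparisons. In the combined knockdown 15.3% of all probe sets had an unadjusted p under 0.05. The called gene of the list was SUZ12, a core subunit of the Polycomb complex that methylates histone H3. SUZ12 had 8.98 and 9.08 log2 units in the combined knockdown, 8.14 and 8.26 after H3.Y siRNA, and 9.37 and 9.62 with luciferase siRNA. It fell after H3.Y siRNA by 1.29 ± 0.15 on the log2 scale (adjusted p = 0.038, limma), gave -0.47 ± 0.15 in the combined knockdown (adjusted p = 0.195), and was 1.77-fold higher in the combined knockdown than after H3.Y siRNA (adjusted p = 0.034). Its partners in the same complex were not called against luciferase, with EZH2 at -0.17 ± 0.14 after H3.Y siRNA and -0.24 ± 0.14 in the combined knockdown, and EED at 0.13 ± 0.16 and 0.05 ± 0.16. Leaving out 1 array left SUZ12 called after H3.Y siRNA in 1 of 6 fits (adjusted p 0.040 to 0.31, log2 -1.41 to -1.17) and between the knockdowns in 0 of 6 (0.056 to 0.20). JARID2, which recruits the complex, missed the threshold in the combined knockdown at 1.32 ± 0.24 (adjusted p = 0.054, limma).

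In the list of Trithorax genes and H3K27 demethylases 23 of 24 genes were measured on 25 probe sets, with 1 lower after H3.Y siRNA, 2 lower in the combined knockdown, 1 lower between the knockdowns and 0 higher in each. Of all probe sets 0.279%, 1.84% and 4.67% were called in these comparisons. All calls of this list were on PSIP1, whose product tethers the menin and MLL complex to chromatin. On its first probe set PSIP1 had 4.29 and 4.25 log2 units in the combined knockdown, 4.38 and 4.61 after H3.Y siRNA, and 5.74 and 5.81 with luciferase siRNA. On its second probe set it had 5.84 and 6.13 in the combined knockdown, 6.78 and 7.21 after H3.Y siRNA, and 7.56 and 7.67 with luciferase siRNA. PSIP1 fell in the combined knockdown by 1.63 ± 0.19 on the second probe set (log2; adjusted p = 0.021, limma). It also fell on the first (adjusted p = 0.015), where both combined knockdown arrays lay below background, so the size there is bounded only. After H3.Y siRNA the first probe set also fell (adjusted p = 0.038), with 1 of 2 arrays below background, so its size is bounded only there too, and the second, at -0.62 ± 0.19, was not called (adjusted p = 0.23). Leaving out 1 array kept the combined knockdown calls of both probe sets in 2 of 6 fits each (adjusted p 0.028 to 0.16 for the first and 0.029 to 0.18 for the second), those without an H3.Y array. It kept the H3.Y call of the first in 1 of 6 (0.029 to 0.31) and the call between the knockdowns in 0 of 6 (0.055 to 0.25). KMT2A, the MLL gene, gave -0.32 ± 0.14 and -0.08 ± 0.14 on its 2 probe sets after H3.Y siRNA, and MEN1, which encodes menin, gave -0.32 ± 0.13, none of them called.

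**Figure D4:**
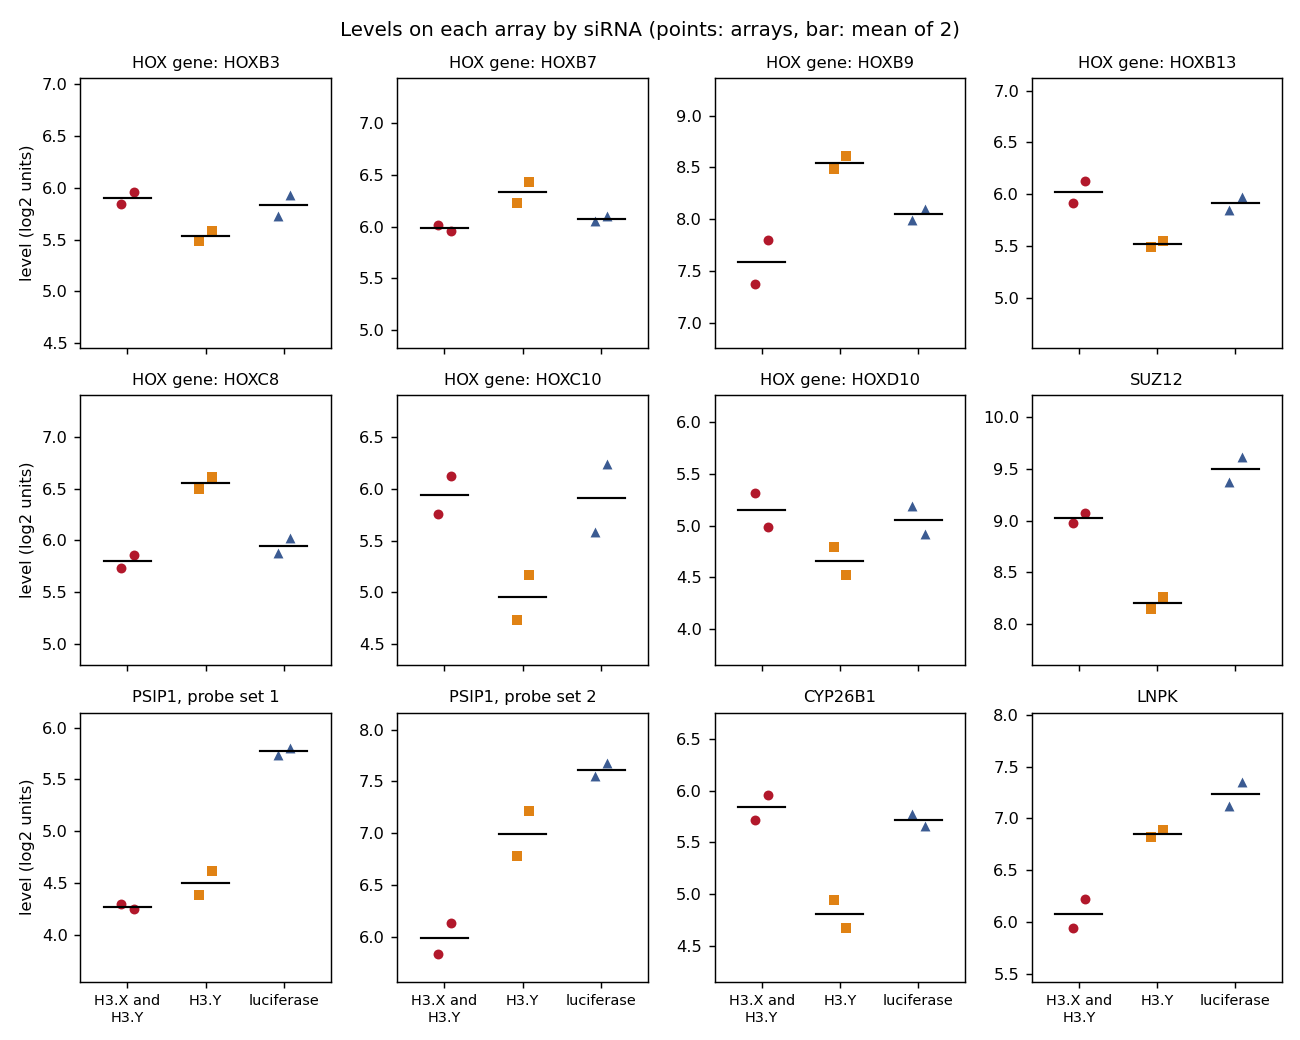
Levels on each array (y axis, log2 units, 2.6 units tall in every panel) by siRNA (x axis) for the 7 HOX genes with an unadjusted p under 0.05 in any comparison, and for SUZ12, both probe sets of PSIP1, CYP26B1 and LNPK. Points are arrays and bars are means of 2. HOXB9 and HOXC8 are highest and HOXC10 and HOXB13 lowest after H3.Y siRNA, where SUZ12 and CYP26B1 are also lowest.

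Some TALE homeodomain proteins, PBX proteins among them, bind DNA together with HOX proteins. Of 11 genes of the TALE class 9 were measured on 13 probe sets, all above background on all 6 arrays, and 0 were called by limma in each comparison. At an unadjusted p under 0.05 limma gave 1 probe set in the combined knockdown, 5 after H3.Y siRNA and 0 where the knockdowns were compared. Of all probe sets 15.3%, 13.9% and 19% passed in these comparisons. All 5 after H3.Y siRNA were of TGIF1 or TGIF2, and none was of a PBX or MEIS gene. The 1 in the combined knockdown was of MEIS2, at 0.45 ± 0.18 (adjusted p = 0.32, limma). MEIS1 gave -0.26 ± 0.30 after H3.Y siRNA and -0.03 ± 0.30 in the combined knockdown, and PBX3 gave 0.35 ± 0.16 and 0.04 ± 0.16. The median over the 13 probe sets was 0.35 after H3.Y siRNA and 0.19 in the combined knockdown, against 0.02 and 0.00 over all probe sets, and 5 of the 13 probe sets were of the single gene TGIF1.

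Of 20 genes of retinoic acid signalling 17 were measured on 20 probe sets, with 0 called by limma against luciferase (3 in the combined knockdown and 1 after H3.Y siRNA at an unadjusted p under 0.05) and 1 higher between the knockdowns. Of all probe sets 15.3% and 13.9% had an unadjusted p under 0.05 against luciferase, and 4.67% were called between the knockdowns. The gene called here was CYP26B1, an enzyme that breaks down retinoic acid. CYP26B1 had 5.72 and 5.96 log2 units in the combined knockdown, 4.94 and 4.67 after H3.Y siRNA, and 5.77 and 5.66 with luciferase siRNA. The H3.Y arrays were the lowest, and the combined knockdown was 2.04-fold higher than they were (adjusted p = 0.026, limma), while the difference of H3.Y from luciferase, -0.91 ± 0.16, missed the threshold (adjusted p = 0.094). In 0 of 6 fits that left out 1 array did the CYP26B1 call hold (adjusted p 0.054 to 0.16, log2 0.89 to 1.16). In the combined knockdown 17 of the 20 probe sets were higher than with luciferase and 3 lower (median 0.13, against 0.00 over all probe sets). RDH10 gave 1.00 ± 0.22 (adjusted p = 0.094, limma), NRIP1 0.75 ± 0.16 (adjusted p = 0.084) and STRA6 0.51 ± 0.18 (adjusted p = 0.25). RARB, a retinoic acid receptor gene that is itself induced by retinoic acid, lay below background on all 6 arrays, at 3.42 to 3.92 log2 units. It differed from luciferase by -0.03 ± 0.20 after H3.Y siRNA and 0.12 ± 0.20 in the combined knockdown.

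The list of genes beside the clusters also held CDX1, CDX2 and CDX4, which lie elsewhere in the genome. Of its 19 genes 18 were measured, with 0 called by limma after H3.Y siRNA, 1 lower in the combined knockdown and 1 lower between the knockdowns. Of all probe sets 0.279%, 1.84% and 4.67% were called in these comparisons. At an unadjusted p under 0.05 limma gave 2, 6 and 4 of 18, where 13.9%, 15.3% and 19% of all probe sets passed. CDX2 was among the 6. Both calls in the list were of LNPK, which encodes a protein of endoplasmic reticulum junctions and lies beyond HOXD13. LNPK had 5.94 and 6.22 log2 units in the combined knockdown, 6.82 and 6.88 after H3.Y siRNA, and 7.12 and 7.35 with luciferase siRNA. It fell in the combined knockdown by 1.16 ± 0.16 on the log2 scale (adjusted p = 0.028, limma), and HOXD13, the nearest HOX gene, gave 0.17 ± 0.18 in the same comparison. Leaving out 1 array kept this LNPK call in 2 of 6 fits, those without an H3.Y array (adjusted p 0.043 to 0.23), and the call between the knockdowns, whose adjusted p was 0.0498, in 0 of 6 (0.089 to 0.30). MTX2, on the far side of the cluster beyond HOXD1, gave -0.69 ± 0.13 (adjusted p = 0.056) beside -0.08 ± 0.18 for HOXD1. The neighbours of cluster D did not share a direction: EVX2, between HOXD13 and LNPK, gave 0.04 ± 0.20, and ATF2, beyond LNPK, gave 0.48 ± 0.18 (adjusted p = 0.28).

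Noncoding RNAs of the clusters were measured for 6 of 25 genes, with 0 called by limma in each comparison. At an unadjusted p under 0.05 there was 1, HOXA-AS2 between the knockdowns, where 19% of all probe sets passed. HOXA-AS2 lay below background on all 6 arrays. HOXB-AS3 was the 1 among them above background on all 6 arrays, at 4.91 to 5.28 log2 units, and differed by 0.20 ± 0.14 after H3.Y siRNA and 0.21 ± 0.14 in the combined knockdown. The probe sets of MIR10A (1.59 to 1.99 log2 units), MIR10B (1.31 to 1.64) and MIR196A2 (2.75 to 3.12) lay below background on all 6 arrays, and that of MIR196A1 lay at 4.30 to 4.81. Probe sets named for microRNA genes on such arrays may not read the mature microRNA, so no level of miR-196a is given beside HOXC8.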

How the data were processed

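Biotin-labelled RNA of U2OS cells was read on 6 Affymetrix arrays. The authors deposited log2 values per probe set, a scale inferred from the values. The submitters' processing notes name oligo, without a version. Background correction, normalization and build (not given in the sources used here) stay unknown. All deposited values ran from 0.687 to 14.0 with near-equal array medians and were used as deposited. A scaling that equalises arrays hides a change common to all transcripts.

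Probe sets were named from the platform's annotation, and 19429 of 19460 single symbols were looked up by Entrez ID in RefSeq GRCh38.p14. Unnamed were 12083 probe sets, and 1754 had several symbols. All 33297 were fitted with limma 3.58.1 in R 4.3.3 (lmFit, eBayes, 1 mean per group, 6 arrays, 3 residual and 3.43 prior degrees of freedom), two-sided, with Benjamini-Hochberg adjustment within each comparison and calls at an adjusted p under 0.05. Simulated data with known changes were used to check the fit. Precision is limited by having 2 arrays in each group.

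The members and gene lists were chosen with earlier results of these data known. All 6 values were given for members above background with an adjusted or unadjusted p under 0.05 in any comparison and for the 4 with the smallest differences from luciferase. Called members of other lists were named. Other members given in full were chosen after their values were seen. Alternatives left out each array in turn, fitted the 4 arrays of a comparison alone, added a replicate block, repeated quantile normalization, centred arrays on their medians, dropped dim probe sets or let the prior follow the mean. Figures were drawn with matplotlib 3.10.9 in Python 3.11.15.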

Additional observations from a re-analysis of the deposited data

How the results depend on the processing

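In both comparisons with luciferase, limma called 0 HOX members under every alternative run, with 1 to 5 after H3.Y siRNA and 0 to 1 in the combined knockdown at an unadjusted p under 0.05 leaving out 1 array. Between the knockdowns, the 2 calls became 0 without any 1 of the 6 arrays (range 0 to 0) and 0 with only the 4 arrays compared, and 4 when dim probe sets were left out, HOXC10 (adjusted p = 0.046) and HOXB13 (0.049) joining. With the replicate number as a block, 3 HOX members were called between the knockdowns, HOXC10 joining at an adjusted p of 0.026, and 0 against luciferase. Same-numbered arrays deviated together with r of 0.12 to 0.28 between groups, but the labels tie the numbers to nothing shared. All probe sets called after H3.Y siRNA (93) were 540 without dim probe sets, 205 with the mean-dependent prior, 0 with only the 4 arrays compared, and 0 to 629 leaving out 1 array. In the combined knockdown (614) they were 1442 without dim probe sets, 960 with that prior, and 0 to 644 leaving out 1 array. Between the knockdowns (1554) they were 2579 without dim probe sets, 448 with the 4 arrays, and 12 to 1641 leaving out 1 array. With 1 array left, a group is assumed to vary like the others. The cause of these shifts was not tested, beyond fewer probe sets or arrays in the fit. HOX members above background numbered 10 in the combined knockdown and 7 after H3.Y siRNA at the 99th olfactory receptor percentile, and 18, 18 and 15 above the array median in the combined knockdown, H3.Y and luciferase groups. Calls of named members between the knockdowns were lost or gained as given here, and none turned to the opposite direction.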
